A study of Mus musculus with 112 samples.

Results

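The 10 genes described here encode collagens, laminin chains and nidogen of the basement membrane: Col4a1, Col4a2, Col18a1, Lama2, Lama4, Lama5, Lamb1, Lamb2, Lamc1 and Nid1. They were chosen as a named list, and all 10 were found among the 32544 gene symbols of both count tables, that for females and that for males. All 10 also passed the filter on low counts that left 11886 genes to test. Counts came from stranded total RNA libraries of the gastrocnemius, a calf muscle, of 56 Diversity Outbred mice aged 16 weeks, 28 of each sex. Diversity Outbred mice are an outbred stock, so each mouse carries a genotype of its own. One limb had been in a cast for 3 weeks, which gave 4 groups of 28 libraries: immobilized limbs of females, control limbs of females, immobilized limbs of males and control limbs of males. The cast was on the right limb and the control was the left limb throughout, so side and treatment cannot be told apart. All 56 mice wore a cast, so every control limb came from a mouse with one on its other limb.

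A basement membrane is a thin sheet of matrix that wraps each muscle fibre and underlies the endothelium of each capillary. Laminins, each built of an alpha, a beta and a gamma chain, form 1 network of the sheet, collagen IV forms another, and nidogen links them. The alpha chain sets where a laminin is found: the α2 chain is that of the muscle fibre and of Schwann cells, and its loss causes a congenital muscular dystrophy, whereas the α4 and α5 chains are those of blood vessels.

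The libraries held between 1716485 and 9995936 counts each (median 4395118). In 10 libraries, each from a different mouse, the muscle actin Acta1 lay under 50% of its median over all libraries, and these stood apart. Among females they were the immobilized limbs of mice 2, 22, 41 and 42 and the control limbs of mice 26, 44 and 48. Among males they were the immobilized limb of mouse 35 and the control limbs of mice 52 and 55. The 8 fibre markers summed to a median of 35530 CPM, a count set against its library's TMM-scaled total, in these 10 libraries and 173700 CPM in the other 102. The 10 markers of T, B and NK cells summed to medians of 403 and 1.93 CPM, and the 8 adipocyte markers to 3907 and 297 CPM, in the same order. Results that rest on these libraries are given with and without their 10 mice, which leaves 21 females and 25 males.

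Per kilobase of exon, the 10 genes fell into levels that differed widely. In the control limbs of females, the median level was 26.9 CPM per kb for Lamb2, 21.2 for Col4a1, 17.9 for Col4a2, 10.9 for Lamc1 and 9.47 for Nid1. The other 5 genes lay close together, from 2.71 CPM per kb for Lamb1 through Lama2 at 2.65, Lama5 at 2.24 and Col18a1 at 2.02 to Lama4 at 1.96. Neighbours in this order overlapped throughout: Lamb2 spanned 8.55 to 36.5 CPM per kb over the 28 libraries and Col4a1 11.5 to 47.4. In the control limbs of males the same 5 genes held the upper places, with Col4a2 at 19.5 and Col4a1 at 19.0 CPM per kb in exchanged order.

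**Figure D1:**
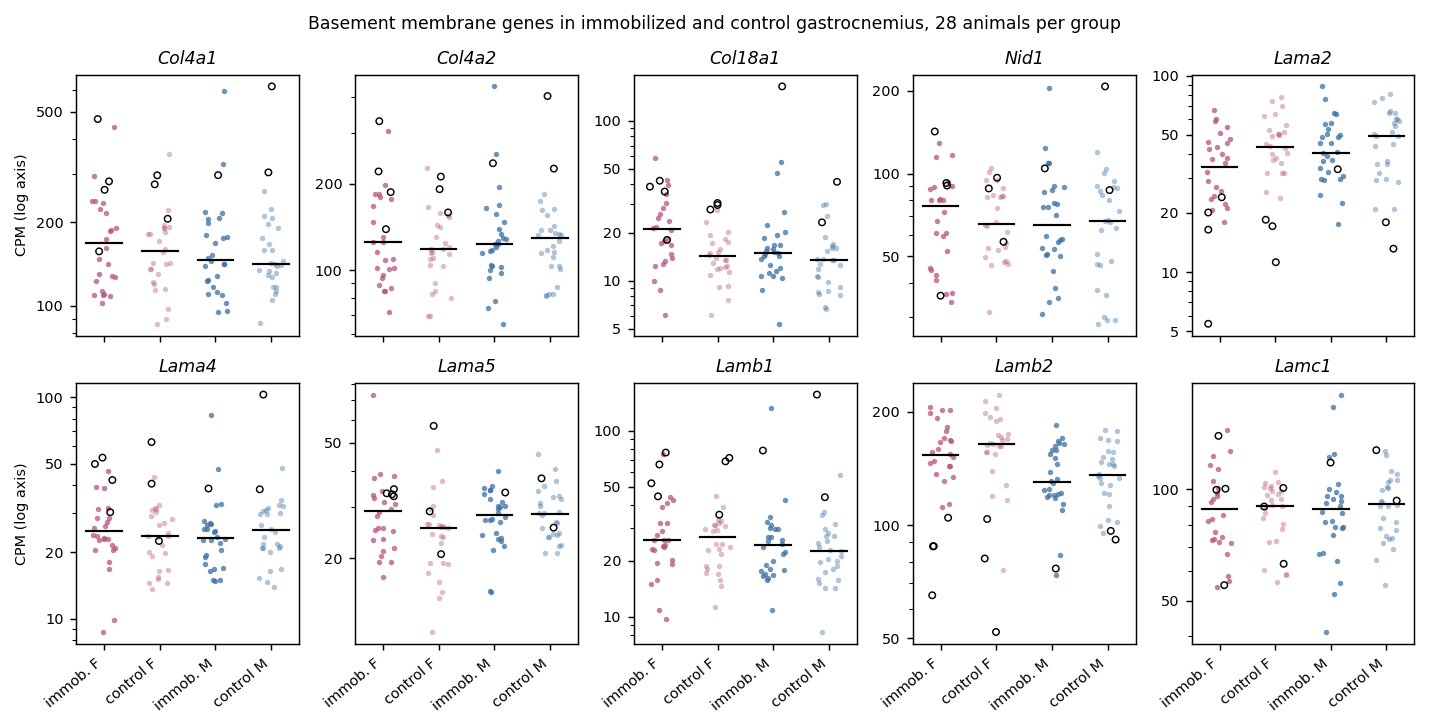
Level of each basement membrane gene in CPM (log axis) in the immobilized and control limbs of females and males, 1 point per library and a line at the median of the 28 libraries. Open circles are the 10 libraries with low Acta1, and all groups of a gene overlap.

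The comparison of the immobilized with the control limb within each mouse asks whether disuse changes the expression of these genes. In females and in males, 0 of the 10 genes passed the threshold, an adjusted p of at most 0.05 over all genes tested by edgeR's quasi-likelihood test with a term for each mouse. Over all genes, 4.52% passed in females and 2.26% in males. At an unadjusted p of at most 0.05 there were 3 of the 10 in females (Col18a1, Lama2 and Lama5) and 0 in males. Of all 11886 genes, 2900 in females and 2036 in males had an unadjusted p as low. DESeq2 and limma voom also called 0 of the 10 in either sex, where they called 9.63% and 5.96% of all genes in females and 4.85% and 3.80% in males. The median log2 fold change of the 10 genes was 0.11 in females and -0.01 in males, against 0.01 in both sexes over all genes tested.

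With the mean effect of both sexes, edgeR called 0 of the 10 genes and 20.0% of all genes. An unadjusted p of at most 0.05 was found for 1 of the 10, Col18a1, and for 4075 of all 11886 genes. The 95% interval of the mean log2 fold change ran from -0.13 to 0.12 for Lamc1, -0.05 to 0.22 for Lama5, -0.18 to 0.11 for Lamb2, -0.12 to 0.19 for Nid1, -0.09 to 0.23 for Col4a2, -0.18 to 0.18 for Lama4 and -0.12 to 0.25 for Col4a1. It was wider for Lama2 (-0.42 to 0.03), Lamb1 (-0.17 to 0.34) and Col18a1 (0.09 to 0.69). In bulk tissue, fewer cells of a type and less RNA per cell cannot be told apart.

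**Figure D2:**
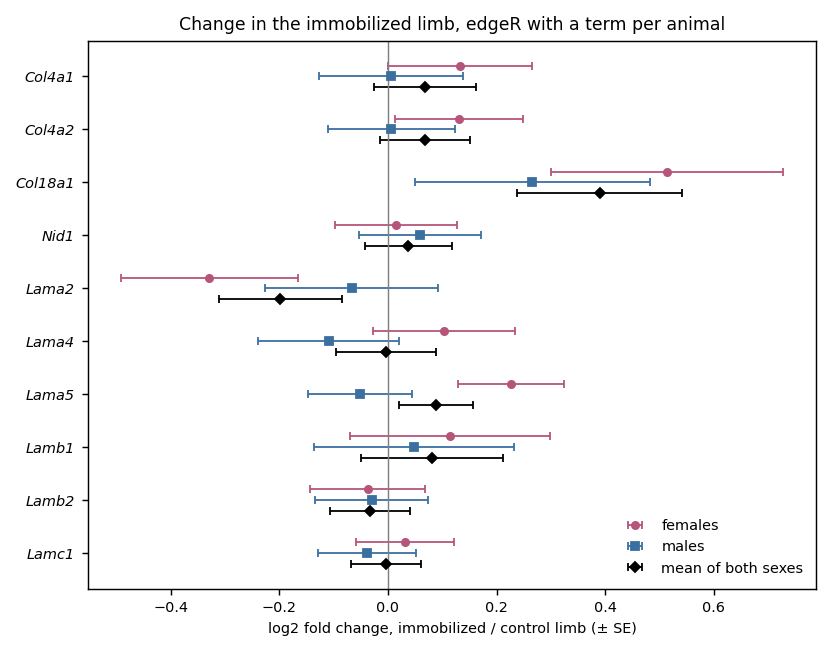
Log2 fold change of each gene in the immobilized against the control limb (horizontal axis, with SE) in females, in males and as the mean of both sexes, by edgeR. Col18a1 has the highest values, Lama2 the lowest in females and for the mean and Lama4 the lowest in males, and none passed the adjusted threshold.

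Col4a1 and Col4a2 encode the chains of the collagen IV molecule found in nearly all basement membranes with 2 α1 chains to 1 α2 chain. Their genes lie head to head, and the RefSeq windows around their annotated starts (250 bases before and 50 after, GRCm38.p6) share 78 bases. These windows are printed because the pair also showed the closest relation between changes of any pair of the 10 genes. Capitals mark the shared stretch, chr8:11312777-11312854, read from the minus strand in Col4a1 and the plus strand in Col4a2.
Col4a1, chr8:11312777-11313076, minus strand: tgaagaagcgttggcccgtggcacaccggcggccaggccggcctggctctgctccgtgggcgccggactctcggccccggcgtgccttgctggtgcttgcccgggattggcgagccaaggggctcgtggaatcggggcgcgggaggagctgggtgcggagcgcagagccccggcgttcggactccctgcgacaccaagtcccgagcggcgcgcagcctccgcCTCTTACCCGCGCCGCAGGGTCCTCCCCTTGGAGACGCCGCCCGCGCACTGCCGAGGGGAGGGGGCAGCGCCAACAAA
Col4a2, chr8:11312555-11312854, plus strand: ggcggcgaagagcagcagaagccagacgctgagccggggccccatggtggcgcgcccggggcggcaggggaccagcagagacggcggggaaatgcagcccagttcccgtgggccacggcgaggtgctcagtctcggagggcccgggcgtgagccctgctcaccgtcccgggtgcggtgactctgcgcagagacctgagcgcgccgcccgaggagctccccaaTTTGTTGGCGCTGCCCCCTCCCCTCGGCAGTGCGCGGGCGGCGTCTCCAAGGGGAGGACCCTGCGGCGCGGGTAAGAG
The annotated transcripts overlap by 22 bases at their starts. The labels give a kit that keeps the strand, but not whether counting used it, so reads within the overlap may have been given to either gene.

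Col4a1 ran from 102 through a median of 168 to 471 CPM in immobilized limbs of females, against 86.2, 158 and 354 CPM in their control limbs. In males it ran from 94.8 through 146.5 to 593 CPM in immobilized limbs, against 86.4, 142 and 618 CPM in control limbs. The ranges nearly coincided, and the highest libraries were female 2 and male 31 among immobilized limbs and female 49 and male 52 among control limbs. The log2 fold change of Col4a1 was 0.13 ± 0.13 in females (SE, n = 28 mice, edgeR adjusted p = 0.55) and 0.01 ± 0.13 in males (edgeR adjusted p = 0.99). Col4a1 was higher in the immobilized limb of 14 of 28 females and 16 of 28 males. Col4a2 had medians of 126 CPM in immobilized and 118 CPM in control limbs of females, and of 124 and 129 CPM in those of males. Its log2 fold change was 0.13 ± 0.12 in females and 0.01 ± 0.12 in males (edgeR adjusted p = 0.5 and 0.99).

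The Col4a1 and Col4a2 changes were near copies of each other. Across the 56 mice, Pearson's r of the per-mouse change in log2 CPM (immobilized minus control limb) was 0.96 and Spearman's coefficient 0.93. The permutation p adjusted over the 45 pairs of genes was 2.4e-05 for r, which rests on the smallest p that 100000 resamples can give. Without the 2 mice farthest from the median r was 0.94, without the mice with a low Acta1 library 0.94, and in the mice numbered 1 to 20, 21 to 40 and 41 to 59 it was 0.95, 0.97 and 0.96. The count ratio of Col4a1 to Col4a2 had medians of 1.31 in immobilized and 1.30 in control limbs of females, and of 1.22 and 1.25 in those of males. Its per-mouse change had a mean of 0.01 and an SD of 0.21 on the log2 scale in females, whereas the change of Col4a1 itself had an SD of 0.71.

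Col18a1 encodes collagen XVIII, a heparan sulphate proteoglycan of vessel and muscle basement membranes whose end fragment, endostatin, restrains vessel growth. It was the member nearest to a call. In females it ran from 6.12 through a median of 21.0 to 58.6 CPM in immobilized limbs, against 6.10, 14.2 and 30.6 CPM in control limbs. In males it ran from 5.37 through 15.0 to 164 CPM in immobilized limbs, against 6.62, 13.5 and 41.5 CPM in control limbs. Both sexes overlapped between limbs, and the male value of 164 CPM was from the low Acta1 library of male 35. The log2 fold change was 0.51 ± 0.21 in females (edgeR p = 0.019, adjusted p = 0.13, higher in 18 of 28) and 0.27 ± 0.22 in males (edgeR adjusted p = 0.56, higher in 16 of 28).

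The mean effect of both sexes on Col18a1 was 0.39 ± 0.15 (edgeR adjusted p = 0.059), and its call depended on the model and the mice. It passed by DESeq2 at 0.39 (adjusted p = 0.029) and by limma voom at 0.43 (adjusted p = 0.035), which called 24.9% and 22.1% of all genes. Without a term per mouse it passed at 0.57 (edgeR adjusted p = 0.0043, against 20.2% called). Without the mice with a low Acta1 library, Col18a1 rose by 0.43 ± 0.15 as the mean of both sexes (edgeR adjusted p = 0.021, against 32.5% of all genes called) and by 0.60 ± 0.22 in females (edgeR adjusted p = 0.046, against 17.2%). In males without them it was 0.26 ± 0.20 (edgeR adjusted p = 0.43), and 0 of the 10 genes were called by edgeR against 9.11% of all genes (unadjusted p at most 0.05 in 0). Within number blocks Col18a1 passed in the mice numbered 1 to 20, at 0.64 ± 0.19 (edgeR adjusted p = 0.034, against 9.56% called). It was 0.32 ± 0.35 in those numbered 21 to 40 and 0.12 ± 0.19 in those numbered 41 to 59 (edgeR adjusted p = 0.73 and 0.91).

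Of the laminin alpha chains, Lama2, the chain that binds dystroglycan on the fibre, had its lowest log2 fold change in females. There it ran from 5.45 through a median of 34.1 to 67.1 CPM in immobilized limbs, against 11.2, 43.4 and 77.7 CPM in control limbs. In males it ran from 17.6 through 40.6 to 88.2 CPM in immobilized limbs, against 13.2, 49.3 and 80.7 CPM in control limbs. The medians were lower in the immobilized limb of both sexes and the ranges overlapped. The lowest Lama2 values in 3 of the 4 groups came from low Acta1 libraries, those of females 42 and 26 and male 52. The log2 fold change was -0.33 ± 0.16 in females (edgeR p = 0.048, adjusted p = 0.2, lower in 15 of 28) and -0.07 ± 0.16 in males (edgeR adjusted p = 0.88, lower in 14 of 28). With the low Acta1 mice left out it was -0.27 ± 0.13 in females and -0.16 ± 0.12 in males, and the mean of both sexes was -0.21 ± 0.09 (edgeR adjusted p = 0.053).

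Lama4, the vessel chain also made around fat cells, ran from 8.71 through a median of 24.9 to 53.4 CPM in immobilized limbs of females, against 13.6, 23.6 and 62.7 CPM in their control limbs. In males it ran from 14.9 through 23.2 to 83.2 CPM in immobilized limbs, against 13.9, 25.1 and 103 CPM in control limbs. Its medians were within 2 CPM of each other. The log2 fold change of Lama4 was 0.10 ± 0.13 in females and -0.11 ± 0.13 in males (edgeR adjusted p = 0.64 and 0.72).

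Lama5, the other vessel chain and one known to restrict the passage of leukocytes, ran from 17.3 through a median of 29.2 to 73.3 CPM in immobilized limbs of females, against 11.2, 25.5 and 57.2 CPM in control limbs. In males it ran from 15.3 through 28.2 to 39.9 CPM in immobilized limbs, against 20.9, 28.4 and 45.8 CPM in control limbs. Thus the medians differed by a few CPM in females and hardly in males. The log2 fold change of Lama5 was 0.23 ± 0.10 in females (edgeR p = 0.023, adjusted p = 0.14, higher in 17 of 28) and -0.05 ± 0.10 in males (edgeR adjusted p = 0.84, higher in 11 of 28).

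The ratio of the fibre chain to each vessel chain was followed within each mouse, since both genes are then read from the same library. In females the count ratio of Lama2 to Lama5 ran from 0.166 through a median of 1.22 to 2.32 in immobilized limbs, against 0.300, 1.83 and 4.15 in control limbs. In males it ran from 0.704 through 1.43 to 5.73 in immobilized limbs, against 0.349, 1.54 and 3.30 in control limbs. The shift of the median was greater in females, and all groups overlapped. The per-mouse change of the log2 ratio was -0.59 ± 0.23 in females (SE, two-sided sign-flip permutation p = 0.014, adjusted over 6 ratio tests 0.086), and the ratio was lower in 18 of 28. In males it was 0.00 ± 0.17 (permutation adjusted p = 1, lower in 15 of 28). The male minus female difference was 0.59 ± 0.29 (two-sided permutation of sex p = 0.045, adjusted p = 0.13).

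The ratio of Lama2 to Lama4 had a median of 1.65 in immobilized limbs of females, against 1.95 in their control limbs, and of 1.81 in immobilized limbs of males, against 1.92 in control limbs. Its log2 change was -0.45 ± 0.25 in females (permutation adjusted p = 0.16, lower in 18 of 28), 0.06 ± 0.23 in males (permutation adjusted p = 0.99) and 0.51 ± 0.34 as the male minus female difference (permutation adjusted p = 0.2). None of the 6 ratio tests therefore passed the adjusted threshold. Without the low Acta1 mice the female changes were -0.53 ± 0.21 for Lama2 to Lama5 and -0.45 ± 0.18 for Lama2 to Lama4 (both permutation adjusted p = 0.052, lower in 14 of 21). The extreme changes of the Lama2 to Lama4 ratio, 4.49 in a male and -3.43 in a female, came from male 52 and female 42.

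**Figure D3:**
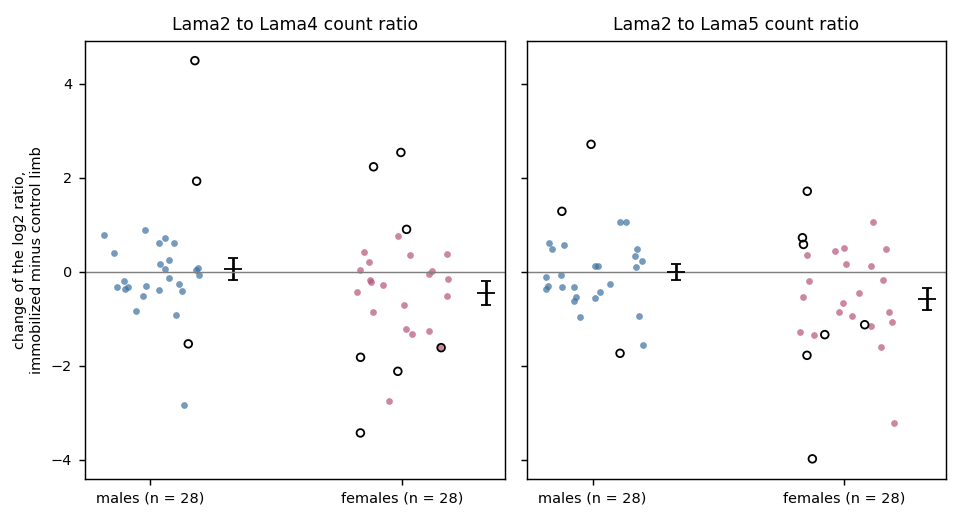
Change of the log2 count ratio of Lama2 to Lama4 (left) and Lama2 to Lama5 (right), immobilized minus control limb, 1 point per mouse, with the mean and SE at the right of each sex. Open circles are mice with a low Acta1 library, which hold most of the extreme values; the mean Lama2 to Lama5 change is 0.00 in males and -0.59 in females.

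Of the remaining laminin chains, Lamb1 and Lamb2 are alternative beta chains, with the β2 chain concentrated at the neuromuscular junction, and Lamc1 encodes the gamma chain that most laminins share. Lamb1 had medians of 25.9 CPM in immobilized and 26.8 CPM in control limbs of females, and of 24.2 and 22.7 CPM in those of males. Lamb2 had medians of 153 and 164 CPM in females and of 130.1 and 136 CPM in males, in the same order of limbs. Lamc1 was nearly level over the 4 groups, with medians from 88.4 to 91.4 CPM. The log2 fold changes in females and males were 0.11 ± 0.18 and 0.05 ± 0.18 for Lamb1, -0.04 ± 0.11 and -0.03 ± 0.10 for Lamb2, and 0.03 ± 0.09 and -0.04 ± 0.09 for Lamc1 (edgeR adjusted p from 0.73 to 0.92). The count ratio of Lamb2 to Lamb1 was wide in every group, from 1.33 to 15.4 in immobilized and 1.14 to 14.9 in control limbs of females.

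Nid1, which encodes the linker nidogen, had medians of 76.2 CPM in immobilized and 65.8 CPM in control limbs of females, and of 65.1 and 67.4 CPM in those of males. Its log2 fold change was 0.01 ± 0.11 in females and 0.06 ± 0.11 in males (edgeR adjusted p = 0.95 and 0.84). For the level of each gene in one limb against the other, only Nid1 in males passed over all mice. There r between the limbs was 0.56 and Spearman's coefficient 0.63 (n = 28, permutation p adjusted over 20 relations 0.039 and 0.0088), and r was 0.55 without the 2 males farthest from the median. Within the number blocks 1 to 20, 21 to 40 and 41 to 59 it was -0.40, 0.36 and 0.24, so the relation did not hold within them. Nid1 in females was next at 0.44 (permutation adjusted p = 0.21). Without the low Acta1 mice 4 of the 20 relations passed: Lama2 in males at r = 0.64, Nid1 in females at 0.60, Nid1 in males at 0.56 and Lamb2 in males at 0.51 (permutation adjusted p = 0.01, 0.028, 0.028 and 0.044). In the 3 number blocks, all mice included, r was 0.43, 0.14 and -0.17 for Lama2 in males, 0.31, 0.72 and 0.18 for Nid1 in females and 0.49, 0.55 and 0.06 for Lamb2 in males.

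Whether the sexes differ in the response is the question of the male minus female difference. For it edgeR called 0 of the 10 genes and 0% of all genes, and DESeq2 and limma voom called 0 of either as well. At an unadjusted p of at most 0.05, edgeR gave 193 of all genes and 1 of the 10, Lama5, with a difference of -0.28 ± 0.14 (edgeR p = 0.047, adjusted p = 1). Without the low Acta1 mice the edgeR count was again 0 of the 10 and 0% of all genes, and the Lama5 difference was -0.32 ± 0.15 (edgeR p = 0.033, adjusted p = 1). Genes of more spread had wider intervals: that for Col18a1 ran from -0.84 to 0.35 and the one for Lama2 from -0.18 to 0.71.

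Between males and females in limbs of the same kind, edgeR called 0 of the 10 genes in immobilized limbs, against 4.31% of the 11144 genes tested there, and 0 in control limbs, against 1.74% of 10974. DESeq2 and limma voom called 0 of the 10 in both. At an unadjusted p of at most 0.05 edgeR gave Lama2 in immobilized limbs and Lamb2 in control limbs, against 2367 and 1600 of all genes. Lama2 was higher in males by 0.32 ± 0.16 in immobilized limbs (edgeR adjusted p = 0.23) and by 0.09 ± 0.16 in control limbs (edgeR adjusted p = 0.86). Lamb2 had a log2 fold change of -0.17 ± 0.09 in immobilized and -0.21 ± 0.10 in control limbs, males against females (edgeR adjusted p = 0.28 and 0.31).

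Although 0 of the 10 genes passed the threshold in the main edgeR fits, they did not vary independently from mouse to mouse. The per-mouse changes of Col4a1, Col4a2, Lamb1, Lama4, Col18a1 and Nid1 went together: all 15 pairs among them had a positive r, from 0.58 to 0.96, and Spearman's coefficient from 0.62 to 0.93 (adjusted permutation p at most 0.05 in 15 of 15). Their lowest r was 0.57 without the low Acta1 mice, 0.57 without the 2 mice farthest from the median of each pair, and 0.66, 0.65 and 0.55 in the 3 number blocks. Lama4 and Lamb1, an alpha and a beta chain that join in vessel laminins, had r = 0.85 (Spearman's coefficient 0.83), and Lama4 and Col4a2 had r = 0.82 (Spearman's coefficient 0.78). These 6 genes were grouped after their values were seen. All values of a mouse come from the same pair of libraries and share their depth and composition. How often pairs of other genes went together as closely was not tested.

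Lamc1 stood between, with r from 0.41 to 0.72 to those 6 genes. Lama2 and Lamb2 formed a pair of their own, with r = 0.77 and Spearman's coefficient 0.69 (adjusted permutation p = 2.4e-05 for r), and 0.68 without the 2 farthest mice. Without the low Acta1 mice it was 0.53 (adjusted permutation p = 0.00028), and in the number blocks 0.67, 0.83 and 0.80. Lama5 followed none of the others: its r with them lay between -0.16 and 0.21, and 0 of these 9 relations passed, with or without the low Acta1 mice.

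Between Lama2 or Lamb2 and the 6 genes, r ran from -0.45 to 0.05 over 12 pairs, and 5 passed as negative, the lowest being Lamb1 with Lamb2 (Spearman's coefficient -0.37, adjusted permutation p = 0.0012 for r). Lama2 with Lama4, the fibre and the vessel chain, had r = -0.30 (adjusted permutation p = 0.043) and Spearman's coefficient -0.13. In the other 46 mice 0 of these 12 pairs passed as negative, and their r ran from -0.03 to 0.32. Lama2 with Lama4 was then at 0.12 and Lamb1 with Lamb2 at -0.01. The negative relations thus did not hold without those mice. The positive relations numbered 23 of 45 with and 23 of 45 without them. The share that would pass among pairs of other genes was not tested, so these counts stand without a background rate.

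**Figure D4:**
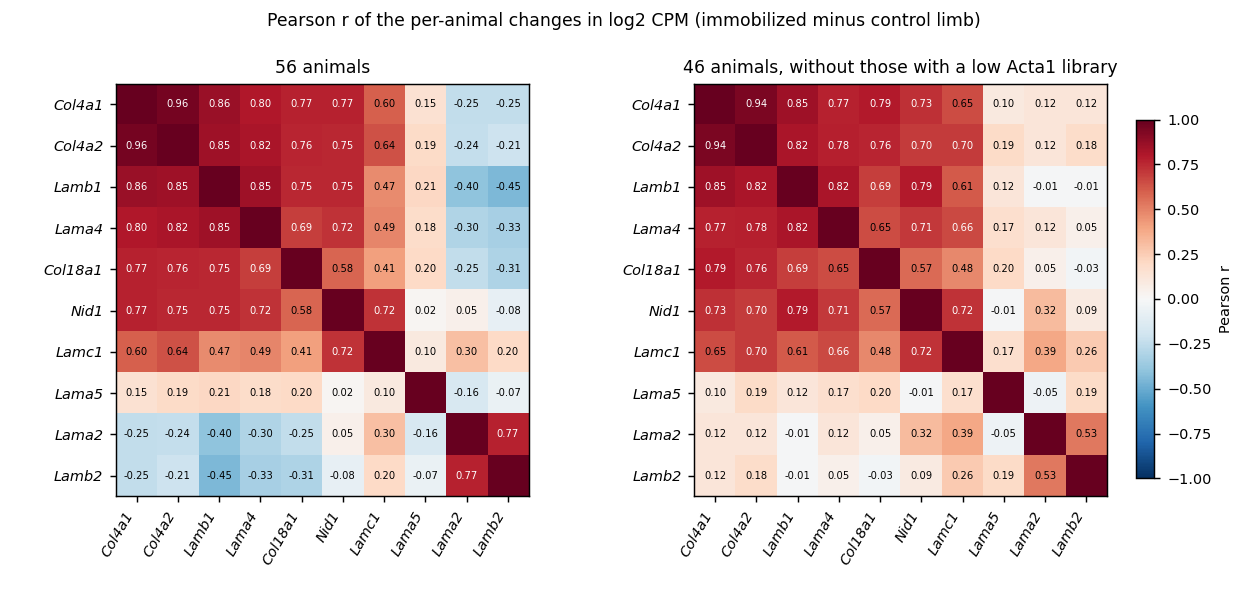
Pearson's r between the per-mouse changes (log2 CPM, immobilized minus control limb) of each pair of the 10 genes, over 56 mice (left) and over the 46 mice without a low Acta1 library (right). The block of Col4a1, Col4a2, Lamb1, Lama4, Col18a1 and Nid1 is positive in both panels, while the negative cells for Lama2 and Lamb2 are near 0 or positive on the right.

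The low Acta1 libraries show how far single limbs could diverge. The control limb of male 52 had 13.2 CPM of Lama2, against Lama4 at 103, Lamb1 at 156 and Col4a1 at 618 CPM, each of the last 3 the highest of any library. Its Acta1 was at 3.41 CPM, its 8 adipocyte markers summed to 19560 CPM and its 14 endothelial markers to 1367 CPM, the highest sums of any library. The immobilized limb of female 42 had the lowest Lama2 of all libraries, 5.45 CPM, beside Lama4 at 30.3 CPM. The part of tissue composition in these values was not tested.

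**Figure D5:**
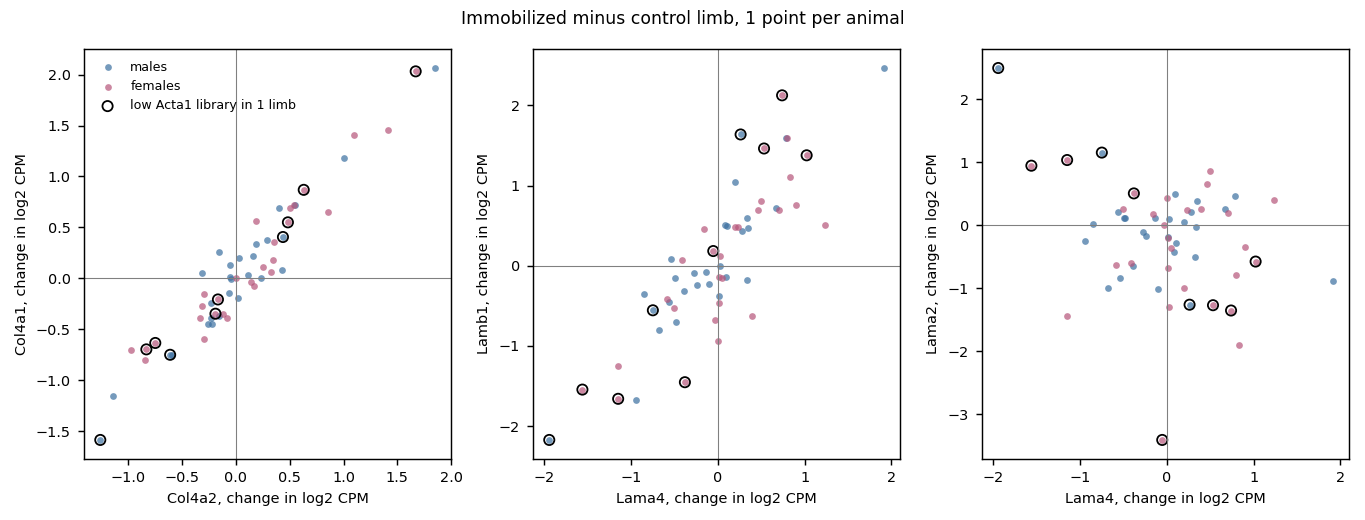
Per-mouse change in log2 CPM (immobilized minus control limb) of Col4a1 against Col4a2, Lamb1 against Lama4 and Lama2 against Lama4, 1 point per mouse and circles around mice with a low Acta1 library. The left panels follow a line (r = 0.96 and 0.85), and in the right one r is -0.30 over all mice and 0.12 without the circled ones.

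Since vessels hold much of the collagen IV in muscle, the changes were set beside the mean change of 14 endothelial markers. Over 56 mice r was 0.75 for Lama4, 0.71 for Col4a1, 0.71 for Col4a2, 0.68 for Lamb1, 0.54 for Col18a1 and 0.52 for Nid1 (permutation p adjusted over 10 relations from 2.5e-05 to 8.3e-05). Spearman's coefficient for these genes was 0.71, 0.66, 0.61, 0.62, 0.57 and 0.46, and r without the 2 farthest mice lay between 0.44 for Nid1 and 0.70 for Lama4. Without the low Acta1 mice r was from 0.43 for Nid1 to 0.68 for Lama4, and in the number blocks it was from 0.43 to 0.85. Lama5 had r = 0.24, Lamc1 0.22 and Lamb2 -0.19 (permutation adjusted p = 0.089, 0.11 and 0.17). Lama2 had r = -0.35 (permutation adjusted p = 0.014) but Spearman's coefficient -0.20, and r was -0.04 without the low Acta1 mice. How often the changes of other genes followed these markers was not tested, nor how closely the 10 genes followed the marker lists of other cell types.

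Summed endothelial markers had medians of 471 CPM in immobilized and 475 CPM in control limbs of females, and of 505 and 525 CPM in those of males. Of the 14 markers edgeR called 0 in females (6 had an unadjusted p of at most 0.05), where DESeq2 called 1 and limma voom 0. In males 1 fell, the growth factor receptor Kdr at -0.53 ± 0.14 (edgeR adjusted p = 0.035), against 2.26% of all genes called. As the mean of both sexes 7 of the 14 were called, against 20.0% of all genes. Kdr, Flt1, Tek, Cdh5 and Eng fell, at log2 fold changes from -0.47 for Kdr to -0.19 for Eng, while the tight junction gene Cldn5 rose by 0.46 and Egfl7 by 0.21 (edgeR adjusted p from 0.0011 to 0.048). Without the low Acta1 mice 3 rose and 3 fell, against 32.5% of all genes. How much of the shared movement of the collagen IV genes comes from vessel content was not tested.

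By the same measure, the genes whose change was most like that of a member were sought among 10995 genes. For Lama2 they were Dmd, which encodes dystrophin of the fibre's link to laminin, with r = 0.82, the microtubule gene Map4 at 0.81 and the ankyrin Ank3 at 0.81, and without the low Acta1 mice these were 0.60, 0.54 and 0.60. For Lama4 they were Lamb1 at 0.85, the fat lipase Lipe at 0.83 and Mrap, an adipocyte gene, at 0.83. Without the low Acta1 mice these were 0.82, 0.74 and 0.73. The 8 adipocyte markers had median log2 fold changes of 0.73 in females and -0.81 in males, with 0 called in either, against 4.52% and 2.26% of all genes. In immobilized limbs edgeR called 2 of the 7 tested lower in males than in females, against 4.31% of all genes. Without the low Acta1 mice it called 0 of these 7 (unadjusted p at most 0.05 in 4), against 1.70% of all genes. The part of fat in the Lama4 values was not tested. For Lama5 the highest values were lower, with Leng8 at 0.60, the helicase Dhx34 at 0.59 and the vascular receptor Notch3 at 0.56. For Col4a1 they were Col4a2 at 0.96, Lamb1 at 0.86 and Clic4 at 0.85.

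The promoter windows of the pair Lama2 and Lamb2 are shown for comparison with the collagen IV pair, because these genes changed together though they lie on chromosomes 10 and 9. Capitals mark a GC box (GGGCGG or its complement CCGCCC).
Lama2, chr10:27616893-27617192, minus strand: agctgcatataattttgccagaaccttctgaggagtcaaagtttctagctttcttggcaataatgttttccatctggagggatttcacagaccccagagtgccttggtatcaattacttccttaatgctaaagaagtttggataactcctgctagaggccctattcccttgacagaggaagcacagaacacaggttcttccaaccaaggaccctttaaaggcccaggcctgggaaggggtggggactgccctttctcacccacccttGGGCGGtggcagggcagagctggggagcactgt
Lamb2, chr9:108479612-108479911, plus strand: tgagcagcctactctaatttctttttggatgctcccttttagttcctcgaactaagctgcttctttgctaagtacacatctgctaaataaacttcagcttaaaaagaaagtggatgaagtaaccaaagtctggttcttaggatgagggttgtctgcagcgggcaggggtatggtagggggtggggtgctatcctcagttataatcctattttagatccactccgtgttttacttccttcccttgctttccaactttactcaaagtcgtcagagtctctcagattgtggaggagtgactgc
The set of RefSeq windows used here held 8 of the 10 genes, all but Lama4 and Lamc1. The G and C content was 50.3% for Lama2 and 44.0% for Lamb2, against 74.0% for Col4a1, 73.7% for Col4a2 and a median of 52.7% over all 32851 windows. The GC box was found on either strand in Col4a1, Col4a2, Col18a1, Lama2, Lama5, Lamb1 and Nid1, and in 35.7% of all windows. The CCAAT box (CCAAT or ATTGG) was found in Col4a1, Col4a2, Col18a1, Lamb1 and Nid1, and in 37.4% of all windows. The TATA box (TATAAA or TTTATA) was found in none of the 8 and in 13.6% of all windows.

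Further genes of the sheet were read from 4 lists. Of 28 other basement membrane genes 22 were tested, and edgeR, DESeq2 and limma voom called 0 in females and 0 in males (unadjusted p at most 0.05 by edgeR in 2 and 1). With the mean of both sexes, Col7a1, which encodes anchoring fibrils, rose by 0.48 ± 0.18 and Npnt, the integrin ligand nephronectin, fell at -0.52 ± 0.15 (edgeR adjusted p = 0.049 and 0.011), which makes 2 of 22 called, against 20.0% of all genes. Npnt also was higher in males, by 1.29 ± 0.25 in immobilized and 1.14 ± 0.20 in control limbs (edgeR adjusted p = 0.00091 and 0.00018). It was the 1 of 18 called in immobilized limbs, against 4.31% of all genes. In control limbs 1 of 17 was higher and 1 lower in males, against 1.74%. The lower one was the laminin chain Lamb3, at -0.90 ± 0.23 (edgeR adjusted p = 0.028). Without the low Acta1 mice Lamb3 was also called in immobilized limbs, at -1.33 ± 0.28 (edgeR adjusted p = 0.0033, against 1.70% of all genes).

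Of 18 receptors tested, edgeR called 0 in females and 0 in males (unadjusted p at most 0.05 in 6 and 2), where DESeq2 and limma voom called 1 each in females and 0 in males. As the mean of both sexes, 3 rose and 1 fell, so that the 4 of 18 called were near the 20.0% called of all genes. The collagen receptors Ddr2 and Ddr1 rose by 0.29 ± 0.08 and 0.20 ± 0.06, Itgb4 of a laminin-binding integrin by 0.43 ± 0.14, and the collagen IV receptor subunit Itga1 fell at -0.42 ± 0.13 (edgeR adjusted p from 0.012 to 0.024). In females without a low Acta1 library, Mcam, which binds the α4 laminin, rose by 0.38 ± 0.11, and Dmd fell at -0.48 ± 0.15 (edgeR adjusted p = 0.018 and 0.025), among 5 of 18 called against 17.2% of all genes. In males without them Dag1, the dystroglycan that binds the α2 laminin, fell at -0.25 ± 0.07 (edgeR adjusted p = 0.02), the 1 of 18 called against 9.11% of all genes. As the mean of both sexes without these mice, Dag1 fell at -0.24 ± 0.05 and Dmd at -0.41 ± 0.10 (edgeR adjusted p = 0.00062 and 0.002). There 4 of the 18 receptors rose and 3 fell, against 32.5% of all genes called. The male minus female difference was called for 0 of the 18.

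Of 17 enzymes of assembly, edgeR called 1 in females, which is near the 4.52% called of all genes. It was the collagen prolyl hydroxylase P4ha1, which fell at -0.31 ± 0.10 (edgeR adjusted p = 0.045). In males edgeR, DESeq2 and limma voom called 0 of these enzymes (unadjusted p at most 0.05 by edgeR in 2). As the mean of both sexes 1 rose and 2 fell, against 20.0% of all genes called. The fourth list, proteases of the basement membrane and their inhibitors, had 18 tested, of which 7 rose in females and 5 in males (against 4.52% and 2.26% of all genes called), and 0 fell in either. As the mean of both sexes 10 rose and 1, the inhibitor Timp3, fell, against 20.0% of all genes called. The median log2 fold change of this list was 0.53 in females and 0.30 in males, against 0.01 in both over all genes. Mmp2, the gelatinase that cuts collagen IV, rose by 0.68 ± 0.15 in females and 1.00 ± 0.15 in males (edgeR adjusted p = 0.011 and 5.1e-05), in 25 and 26 of 28 mice. The membrane protease Mmp14, its activator, rose by 1.40 ± 0.28 in females and 1.15 ± 0.26 in males, with edgeR adjusted p = 0.0039 and 0.012.

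The lists of macrophage, Schwann cell and fibro-adipogenic progenitor markers also had positive median log2 fold changes in both sexes. The 8 macrophage markers summed to a median of 136.5 CPM (range 16.2 to 1187) in immobilized and 74.3 CPM (44.3 to 492.5) in control limbs of females, and to 87.5 CPM (23.5 to 806) and 71.9 CPM (16.6 to 242) in those of males. The median log2 fold change of the 6 macrophage markers tested was 0.76 in females and 0.67 in males. Of these, edgeR called 2 higher in females, Adgre1 and Cd68, against 4.52% of all genes. In males it called 0 (unadjusted p at most 0.05 in 5), against 2.26% of all genes. As the mean of both sexes all 6 were called higher, against 20.0% of all genes called, with Cd68 at 1.15 ± 0.28 (edgeR adjusted p = 0.0029). Without the low Acta1 mice edgeR called 3 of these 6 higher in females and 4 in males, against 17.2% and 9.11% of all genes. The 8 Schwann cell markers summed to medians of 215.5 CPM (95.7 to 593) in immobilized and 153 CPM (68.2 to 821) in control limbs of females, and of 208 CPM (114 to 1201) and 138 CPM (72.7 to 537) in those of males. The 7 Schwann cell markers tested had median log2 fold changes of 0.46 in females and 0.54 in males. As the mean of both sexes 6 of these 7 were called higher, against the same 20.0%. The 8 fibro-adipogenic progenitor markers, those of the matrix-forming cells between fibres, summed to medians of 1747 CPM (629 to 3251) in immobilized and 1512 CPM (838 to 3102) in control limbs of females, and of 1673 CPM (814 to 3754) and 1649 CPM (502 to 4235) in those of males. Their median log2 fold change was 0.30 in females and 0.26 in males. As the mean of both sexes 3 of these 8 were called higher, against the same 20.0%. For the mean without the low Acta1 mice, 6 of 6 macrophage, 7 of 7 Schwann cell and 5 of 8 progenitor markers were called higher, against 32.5% of all genes. No marker of these 3 lists had a median count of 0. The part of these cells in the protease values was not tested, nor was the difference between the proteases and the 10 genes.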

How the data were processed

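Read counts per gene symbol were deposited by the authors as whole numbers, in 1 table for females and 1 for males, and the deposited counts were used unchanged. Libraries were stranded total RNA with ribosomal RNA removed, per the labels' protocols. No aligner, counter or genome build is given in the sources used here. Groups, sex, limb and mouse number came from the sample labels. Of the rows 0 named no gene, and 0 value columns belonged to no sample.

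Genes were filtered with filterByExpr and scaled by TMM. The quasi-likelihood fits of edgeR 4.0.16 (R 4.3.3) had a term per mouse and 1 immobilization effect per sex, and Benjamini-Hochberg adjustment over all genes tested (threshold 0.05). Males and females were compared within each kind of limb in a fit of 56 libraries. SE was taken from the F statistic, and 95% intervals are 1.96 SE to either side. Ratios used counts plus 0.5 and sign-flip permutation, log2 CPM a prior count of 2, and permutations 100000 resamples. Lengths are the union of GENCODE M21 exons. Promoter windows are from RefSeq, GRCm38.p6.

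The mouse number pairs the limbs, since both came from the same animal. Deviations from the group mean correlated at a median of 0.36 between limbs of a mouse and 0.0013 between limbs of different mice of 1 sex. Between limbs of a mouse they exceeded 0.1 in 45 of 56 mice, and the lowest was -0.43. The different mice were taken across the number blocks, so the part of the block in this contrast was not tested. Mice are separate animals. With a term per mouse, and in the ratio tests, p-values measure the spread of the limb-to-limb change over mice. Those of males against females in limbs of the same kind measure the spread between mice. No 2 libraries held identical counts, and over the 1512 pairs within groups chi-squared per degree of freedom was at least 9.53. Depth limits the precision of genes of low count. Reads carried no molecular identifiers.

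The members, lists, tests and alternatives were chosen with earlier results of these data known. Every member is named. In each comparison the called genes of a list could be named, at most 4 by smallest p, and for Lama2, Lama4, Lama5 and Col4a1 the 3 genes of most similar change with a mean log2 CPM of at least 1. Some genes that this rule names are not reported here. Alternatives were DESeq2 1.42.0, voom of limma 3.58.1, DESeq2's size factors in the edgeR fit, library sizes that left out mitochondrial transcripts and the top 20 genes, all genes with a count, genes of mean CPM 1 or more, no term per mouse, leaving out mice with a low Acta1 library, leaving out males 15 and 16, whose limbs may be exchanged, and the number blocks. The fits and the ratio test were tried on simulated data. The simulated ratio changes had less spread than the real ones, so they do not show how small a shift could be found here.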

Additional observations from a re-analysis of the deposited data

How the results depend on the processing

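The number of the 10 genes past the threshold was 0 in all 6 comparisons and became 1, Col18a1 in each case, under a few alternatives. In females it was 1 without the mice with a low Acta1 library. For the mean of both sexes it was 1 by DESeq2, 1 by limma voom, 1 without those mice and 1 in mice numbered 1 to 20. Without the replicate block (no term per mouse) it was 1 as well, with Col18a1 at 0.57 (edgeR adjusted p = 0.0043, against 20.2% of all genes called). The block changed no other call of a member. The number of limb-to-limb relations past the threshold was 1 and became 4 without the low Acta1 mice: Nid1 in both sexes, and Lama2 and Lamb2 in males. The cause was not tested. Under all alternatives, 64 counts, 694 log2 fold changes of single genes and 46 ratio values kept their result, and the 7 counts above and 6 log2 fold changes of Col18a1 did not. Among log2 fold changes that missed the threshold both times, 87 changed sign. Sizes moved little under other size factors or low-count filters: the mean effect on Col18a1 lay between 0.38 and 0.41 under the 4 of them. A leave-one-out fit was not run at 28 mice per group. Depth limits most the genes of few counts, and Col18a1 had from 15 to 924 counts per library.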
